A study of Mus musculus with 10 samples.

Results

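miR-199 and miR-214 are microRNAs (miRNAs) of mesenchymal cells, and 6 of the 1908 mature miRNAs in the small RNA table of the mouse heart carry their names. They are mmu-miR-199a-5p, mmu-miR-199a-3p, mmu-miR-199b-5p, mmu-miR-199b-3p, mmu-miR-214-3p and mmu-miR-214-5p (mmu for the mouse, left out where the name recurs), chosen by name alone, with both arms of each hairpin. Hearts of C57BL/6 mice came from embryonic day 10.5 (E10.5), E14.5 and E17.5, from newborns and from adults, and the labels record no other genotype and no treatment. Each of these 5 stages gave 1 small RNA library, so there was no spread between animals and nothing was tested between stages. "Higher" and "lower" describe these libraries. Neither the exact age of the newborn and adult mice nor whether hearts were pooled is given in the sources used here. The labels give heart tissue as the source and cardiomyocyte as the cell type. Cardiac muscle miR-1a-3p stood at 42165 to 224767 counts per 1000000 (CPM), but endothelial miR-126a-3p (20571 to 36951 CPM) and miR-143-3p of smooth muscle and fibroblasts (66790 to 125040 CPM) were also abundant. The values below are therefore read as those of whole heart tissue. There, fewer cells of a type and less RNA per cell cannot be told apart. Liver miR-122-5p (894 CPM at E10.5) and neural miR-9-5p (13011 CPM in the newborn) were also counted. Whether tissue from outside the heart was included was not tested. Total miRNA counts lay between 10479309 and 12953867 per library.

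A miRNA hairpin is cut into a 5p arm and a 3p arm, and either can be loaded into Argonaute to repress transcripts that pair with its seed, bases 2 to 8. In the mouse, miR-199a-2 and miR-214 are processed from Dnm3os, a long non-coding RNA transcribed antisense to an intron of the dynamin gene Dnm3. This RNA is known from mesenchyme of the embryo, and mice without it have skeletal defects. In rodent heart cells miR-199a-5p is known to repress the hypoxia factor Hif1a, and miR-199a-3p to promote proliferation of cardiomyocytes. miR-214 is known in the mouse to protect heart muscle cells from calcium overload after ischaemia.

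The mature sequences show which members can be told apart and which cannot. RefSeq held 5 of the 6 names, given here 5′ to 3′ with the seed in capitals.
miR-199a-5p: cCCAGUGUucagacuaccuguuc
miR-199a-3p: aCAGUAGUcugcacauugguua
miR-199b-3p: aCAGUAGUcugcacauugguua
miR-214-3p: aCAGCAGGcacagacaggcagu
miR-214-5p: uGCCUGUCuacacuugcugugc
miR-199a-3p and miR-199b-3p differed at 0 of 22 positions, so a read cannot be given to one of these names rather than the other. The seed of miR-214-3p differs from theirs at 2 of 7 positions. Among the 1679 mature names with a sequence, 1 other, miR-761, shares the seed of miR-214-3p, and it had 0 counts in all 5 libraries, which allows up to 3 counts in each. Among the same 1679 names no other shares the seed of miR-199a-5p or of miR-214-5p. miR-199b-5p is not among these names, and the Mir199b hairpin printed below also holds the bases of the miR-199a-5p seed. The seed of miR-199a-5p is therefore not shown to be its own.

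The hairpins lie at 4 places, given in the GRCm38.p6 build of the RefSeq table, and are printed with the listed mature arms in capitals to show which arms each can give. Mir199a-2 (chr1:162217814-162217923, plus strand) and Mir214 (chr1:162223368-162223477, plus strand) both lie inside Dnm3os, 5444 bases apart. Mir199a-1 (chr9:21496495-21496564, minus strand) lies inside the dynamin gene Dnm2, and Mir199b (chr2:32318460-32318569, plus strand) inside Dnm1.
Mir199a-2: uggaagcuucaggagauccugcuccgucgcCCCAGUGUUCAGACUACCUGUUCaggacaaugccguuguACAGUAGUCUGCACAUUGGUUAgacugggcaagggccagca
Mir199a-1: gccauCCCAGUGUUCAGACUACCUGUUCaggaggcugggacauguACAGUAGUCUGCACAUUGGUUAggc
Mir199b: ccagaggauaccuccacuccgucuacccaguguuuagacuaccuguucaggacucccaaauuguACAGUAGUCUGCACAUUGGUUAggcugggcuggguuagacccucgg
Mir214: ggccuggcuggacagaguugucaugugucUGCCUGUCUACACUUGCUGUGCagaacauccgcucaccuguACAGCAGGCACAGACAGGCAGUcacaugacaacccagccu
The sequence of miR-199a-3p thus occurs in 3 hairpins, of which 2 bear the name miR-199a and 1 the name miR-199b. In the table miR-199a-3p had 2.03 times the counts of miR-199b-3p at E10.5 (95% exact Clopper-Pearson interval 1.98 to 2.07). The same ratio was 2.03 (E14.5), 2.04 (E17.5), 2.03 (newborn) and 2.01 (adult; 1.94 to 2.09). The ratio thus stayed near the ratio of hairpin numbers in every library. No source used here says how shared reads were assigned, and both 3p names are read below as 1 pool. The sequence of miR-199a-5p likewise occurs in both Mir199a-1 and Mir199a-2. Whether its reads were counted at each hairpin is not known, which bears on its level and on the shares and ratios that use it.

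mmu-miR-199a-5p was the most abundant member at every stage. Its counts were 146620 (E10.5), 156928 (E14.5), 153446 (E17.5), 79758 (newborn) and 19488 (adult). In the same order of stages this was 13991, 13615, 11942, 6264 and 1504 CPM. The level stayed between 11942 and 13991 CPM in the embryo, was lower in newborn hearts and lower again in adult hearts. Its place among all miRNAs of a library, ordered by counts, was 19, 17, 20, 27 and 50 in the same order of stages. The E17.5 level was 1.91 times the newborn level (1.89 to 1.92), and the newborn level 4.16 times the adult level (4.10 to 4.23). Over the whole span the E10.5 level was 9.30 times the adult level (9.16 to 9.44). These intervals cover counting error only.

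mmu-miR-199b-5p, the arm whose sequence differs between the miR-199b hairpin and its relatives, was far scarcer. In the printed Mir199b hairpin this stretch is close to the sequence of miR-199a-5p. No source used here says how reads of such similar sequences were told apart. miR-199b-5p had 1594 (E10.5), 1263 (E14.5), 1111 (E17.5), 762 (newborn) and 355 (adult) counts, or 152, 110, 86.5, 59.8 and 27.4 CPM. In CPM each later library was lower, which median-ratio scaling (a scaling by the median miRNA, described further on) did not keep, at 73.9, 86.6, 81.0, 65.7 and 69.4 scaled counts. In CPM, over the whole span the E10.5 level was 5.55 times the adult level (4.94 to 6.24) and 1.39 times the E14.5 level (1.29 to 1.50). As a share of the 5p counts of miR-199a and miR-199b together, miR-199b-5p made up 1.08% (E10.5), 0.798% (E14.5), 0.719% (E17.5), 0.946% (newborn) and 1.79% (adult; Wilson 95% interval 1.61 to 1.98). This share was lowest at E17.5 and highest in the adult. The corresponding share of the 3p counts was 33.0% at E10.5 and 33.2% in the adult. Taken by name, the 5p arm would therefore hold 11.4% of miR-199b at E10.5 and 85.3% of miR-199a, values that rest on how the shared 3p counts were divided.

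The 3p pool of miR-199 had a smaller range. The counts of mmu-miR-199a-3p were 25196 (E10.5), 20703 (E14.5), 18316 (E17.5), 15826 (newborn) and 7904 (adult), or 2404, 1796, 1426, 1243 and 610.2 CPM. mmu-miR-199b-3p ran in parallel, at 1186, 883, 699, 612 and 303 CPM. In CPM each later library was lower, with the widest step between newborn and adult, where the newborn level of miR-199a-3p was 2.04 times the adult one (1.98 to 2.09). Over the whole span that ratio was 3.94 (3.84 to 4.04). Under median-ratio scaling the order turned, with miR-199a-3p at 1168, 1420, 1336, 1365 and 1544 scaled counts, lowest at E10.5 and highest in the adult. The place of miR-199a-3p among all miRNAs stayed between 59 and 66, while that of miR-199a-5p moved from 19 to 50.

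mmu-miR-214-3p was the member with a CPM value above its E10.5 value at a later stage, E17.5, which held for none of the other 5. Its libraries held 1679 (E10.5), 1804 (E14.5), 2286 (E17.5), 1848 (newborn) and 613 (adult) counts, or 160, 157, 178, 145 and 47.3 CPM. The highest library was E17.5 and in CPM the 4 libraries up to the newborn lay close together. The CPM ratio of E14.5 to E10.5 was 0.977 with an interval that spans 1 (0.914 to 1.04), so no difference was detectable there in CPM. Under median-ratio scaling E14.5 lay above E10.5, at 124 against 77.8 scaled counts. In CPM E17.5 was 1.14 times E14.5 (1.07 to 1.21), and the newborn level was 3.07 times the adult level (2.80 to 3.37).

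mmu-miR-214-5p, the other arm of the same hairpin, was lower at E14.5 in CPM but not under median-ratio scaling. There were 1379 (E10.5), 935 (E14.5), 978 (E17.5), 562 (newborn) and 192 (adult) counts, or 132, 81.1, 76.1, 44.1 and 14.8 CPM. Under median-ratio scaling E10.5 and E14.5 stood at 63.9 and 64.1 scaled counts. In CPM the E10.5 level was 1.62 times that of E14.5 (1.49 to 1.76), E14.5 and E17.5 could not be told apart (ratio 1.07, 0.973 to 1.17), and the E17.5 level was 1.72 times the newborn level (1.55 to 1.92). Over the whole span the E10.5 level was 8.88 times the adult level (7.63 to 10.4), against 3.39 times (3.08 to 3.72) for miR-214-3p.

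**Figure D1:**
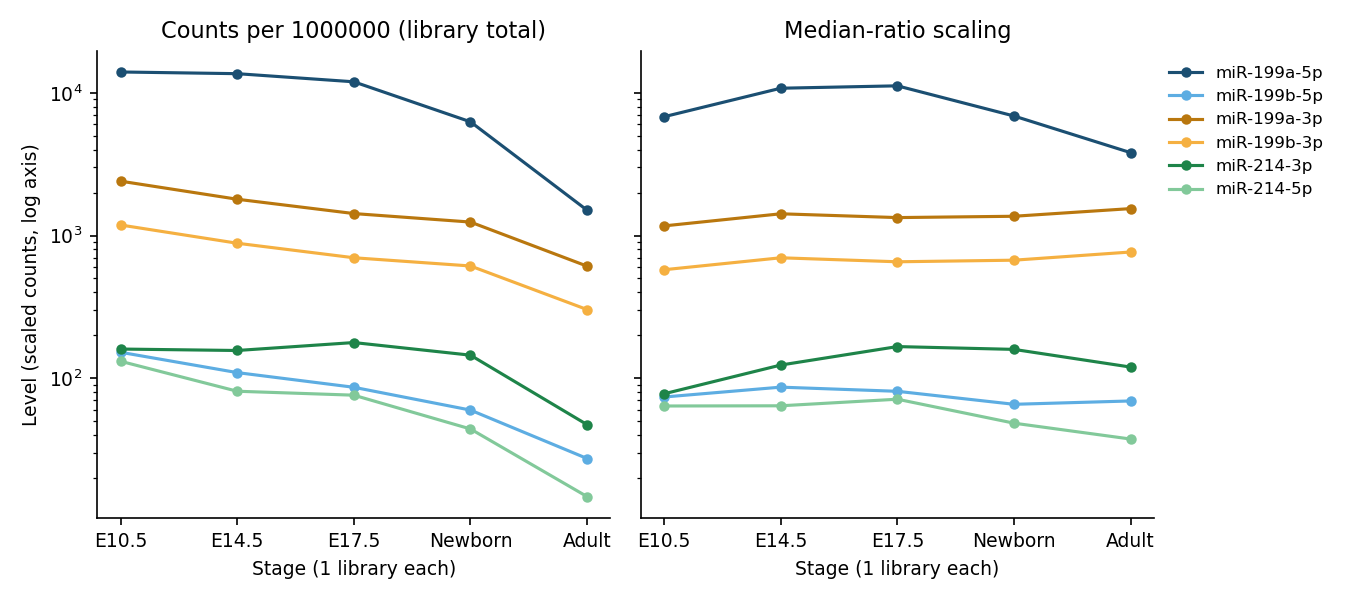
Level of each member by stage, 1 library per stage, with scaled counts on a log axis. The left panel is scaled to the library total and the right panel by median ratios. miR-199a-5p lies above the other members throughout, from 13991 to 1504 CPM, and the 3p names run in parallel.

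In order of CPM at E10.5 the members were miR-199a-5p, miR-199a-3p, miR-199b-3p, miR-214-3p, miR-199b-5p and miR-214-5p, and this order held at the 4 later stages. At E10.5 the neighbours miR-214-3p and miR-199b-5p could not be told apart by counting error (ratio 1.05, 0.983 to 1.13), while at E14.5 they could (1.43, 1.33 to 1.54). Together the 6 members made up 1.80% (E10.5), 1.66% (E14.5), 1.44% (E17.5), 0.837% (newborn) and 0.251% (adult) of all miRNA counts, lower in each later library. With the 10 most abundant miRNAs left out of the total the share was 2.97%, 3.60%, 3.43%, 2.22% and 0.765%, so that E14.5 and E17.5 then lay above E10.5. The Wilson 95% interval was 1.79 to 1.81 at E10.5 and 0.248 to 0.253 for the adult.

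Differences between stages were taken as log2(CPM + 1) and a member counted as higher or lower from a 2-fold difference on, which is a rule of size. miR-199a-3p and miR-199b-3p share their sequence, so each count of 6 members holds the 3p pool under both names. Between E14.5 and E10.5, 0 of 6 members were past the 2-fold limit, where 27.9% of 763 miRNAs compared were lower and 2.88% higher. The members' median difference was -0.42, against -0.64 for all. Between E17.5 and E14.5, 0 of 6 were past the limit (5.6% of 679 miRNAs lower, 1.03% higher), with a median of -0.26 against -0.20. Between the newborn and E17.5 it was again 0 of 6 (9.51% of 673 lower, 5.05% higher), with a median of -0.41 against -0.23, and miR-199a-5p came nearest to the limit at -0.93.

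The adult differed most. All 6 members were at least 2-fold lower than in the newborn, where 43.2% of 636 miRNAs were lower and 6.76% higher. Their differences ran from -2.06 for miR-199a-5p to -1.01 for miR-199b-3p, with a median of -1.31 against -0.85 for all. The newborn to adult ratios of miR-199a-3p (1.98 to 2.09), miR-199b-3p (1.94 to 2.10) and miR-199b-5p (1.92 to 2.48) had intervals that span the 2-fold limit. Against E10.5 all 6 were also lower, where 68.2% of 765 miRNAs were lower and 7.97% higher, with a range from -3.22 for miR-199a-5p to -1.74 for miR-214-3p and a median of -2.20 against -1.59. Of all miRNAs compared in that span, 24.3% had a lower difference than miR-199a-5p and 46.4% a lower one than miR-214-3p. In CPM most miRNAs thus lay lower in the adult library, and the 6 members lay within the bulk of them.

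Several marker lists moved at the newborn stage. The 4 neural markers, miR-9-5p, miR-9-3p, miR-124-3p and miR-128-3p, summed to 4600 CPM (E17.5), 21855 CPM (newborn) and 3295 CPM (adult), with miR-9-5p at 452, 13011 and 443 CPM. All 5 epithelial miRNAs were at least 2-fold lower in the newborn than at E17.5 (median -3.28, with a summed level of 893 against 89.1 CPM), as was the liver miRNA miR-122-5p (-2.55). The level of miR-122-5p also moved at the other steps, at 894 (E10.5), 118 (E14.5), 619 (E17.5), 105 (newborn) and 33.3 CPM (adult). The part of these lists in the newborn values was not tested. With the newborn left out, the adult compared with E17.5 had all 6 members at least 2-fold lower (50.8% of 648 miRNAs lower, 7.1% higher), with a median of -1.76. The same comparison scaled by median ratios had 1 of 6 lower (30.4% of miRNAs lower, 26.2% higher), with differences from -1.56 to 0.23 and a median of -0.35.

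These directions depended on how libraries were scaled, and 16 of the 30 member differences had the opposite sign under median-ratio scaling. For E14.5 against E10.5 all 6 members turned from lower in CPM to between 0.0047 and 0.66 above. Under median-ratio scaling, which sets the median ratio of each library to the geometric mean of all 5 at 1, 0 of 6 members were past the 2-fold limit between the adult and the newborn, where 29.2% of miRNAs were lower and 23.7% higher. Between the adult and E10.5 it was also 0 of 6 (33.1% lower, 25.0% higher). For this span the difference of miR-199a-5p was then -0.84, that of miR-214-5p -0.75 and that of miR-199b-5p -0.09. The 3p names and miR-214-3p turned to 0.40 (miR-199a-3p), 0.41 (miR-199b-3p) and 0.62 (miR-214-3p). On this scale miR-199a-5p was highest at E17.5, with 6797, 10765, 11191, 6877 and 3807 scaled counts at the 5 stages, and miR-214-3p also peaked at E17.5, with 77.8, 124, 167, 159 and 120. The median difference of all miRNAs in the adult from E10.5 moved from -1.59 to -0.40 between the scalings.

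**Figure D2:**
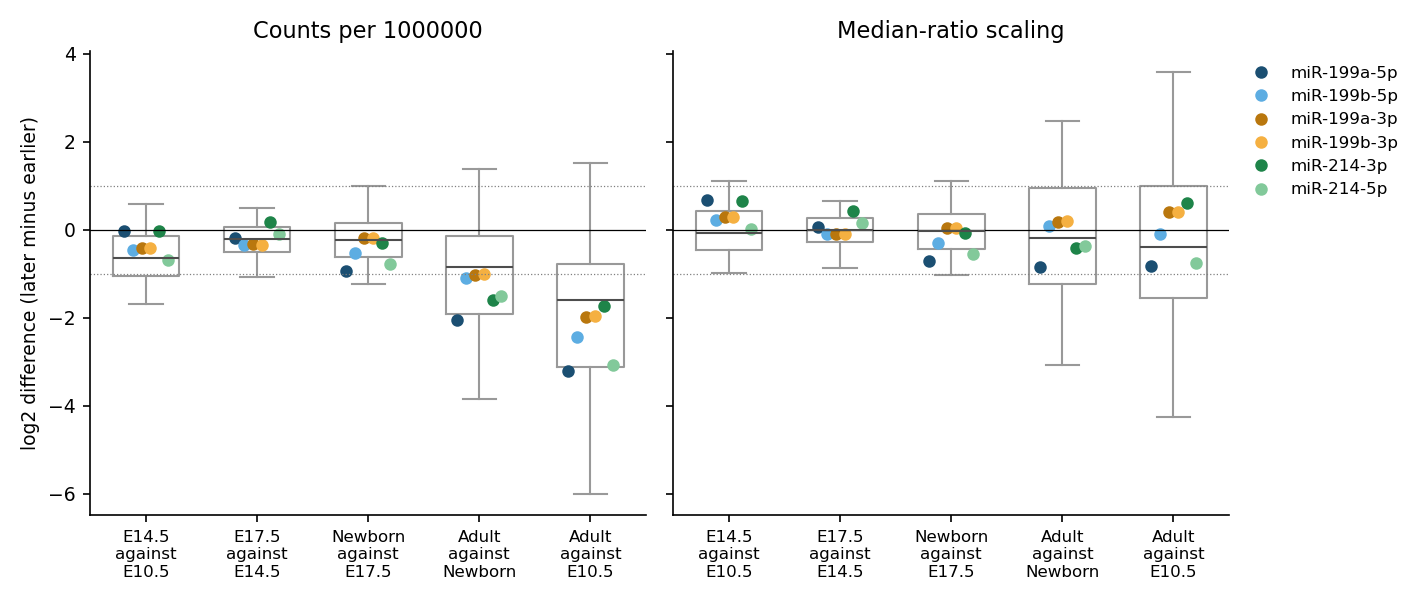
Log2 difference of each member (coloured points) for the 4 neighbouring steps and the whole span, over all miRNAs compared (box, quartiles; whiskers, 5th to 95th percentile), in CPM (left) and under median-ratio scaling (right). Dotted lines mark the 2-fold limit. All 6 members lie below it for both adult comparisons in CPM and none under median-ratio scaling.

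The shares of the arms within a library do not depend on that scaling. The 5p arms of miR-199 held 79.8% (E10.5; Wilson 95% interval 79.6 to 79.9), 83.7% (E14.5), 85.0% (E17.5), 77.3% (newborn) and 62.7% (adult; 62.1 to 63.2) of the counts of the 4 miR-199 names. The 5p arms thus had more counts than the 3p arms in every library, by 5.66 to 1 at E17.5 and by 1.68 to 1 in the adult. Whether different sequences were counted with equal efficiency was not tested, so these are ratios of counts. For miR-214 the 3p arm held 54.9% (E10.5; 53.1 to 56.7), 65.9% (E14.5), 70.0% (E17.5), 76.7% (newborn) and 76.1% (adult; 73.1 to 79.0) of the hairpin's counts. The 3p arm exceeded the 5p arm in each library, the share was higher at each stage up to the newborn, and the newborn and adult intervals overlapped. In both hairpin groups the 5p arm was thus lower relative to the 3p arm in the adult than at E10.5, although the arm with more counts differs between them.

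**Figure D3:**
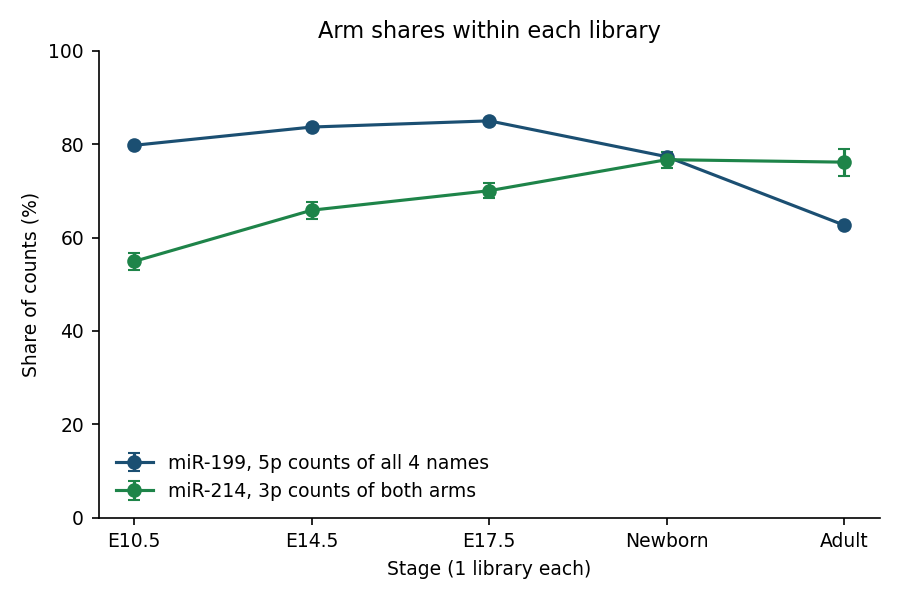
Share of counts in the arm with more counts at each stage, in percent, with Wilson 95% intervals that cover counting error only. The 5p share of miR-199 is highest at E17.5 (85.0%) and lowest in the adult (62.7%), and the 3p share of miR-214 runs from 54.9% at E10.5 to 76.1% in the adult.

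Changes of this size were common among hairpins. The log2 ratio of 5p to 3p counts differed between the adult and E10.5 by -1.23 for miR-199 and by -1.39 for miR-214. Among 114 hairpins with at least 10 counts per arm on average and at least 100 per hairpin in both libraries (the miR-199 names summed as 1), 24.6% moved at least 2-fold toward the 3p arm and 26.3% at least 2-fold toward the 5p arm. The median was 0.11, with quartiles of -0.98 and 1.07, and 20 hairpins had a lower value than miR-199 and 17 a lower one than miR-214.

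**Figure D4:**
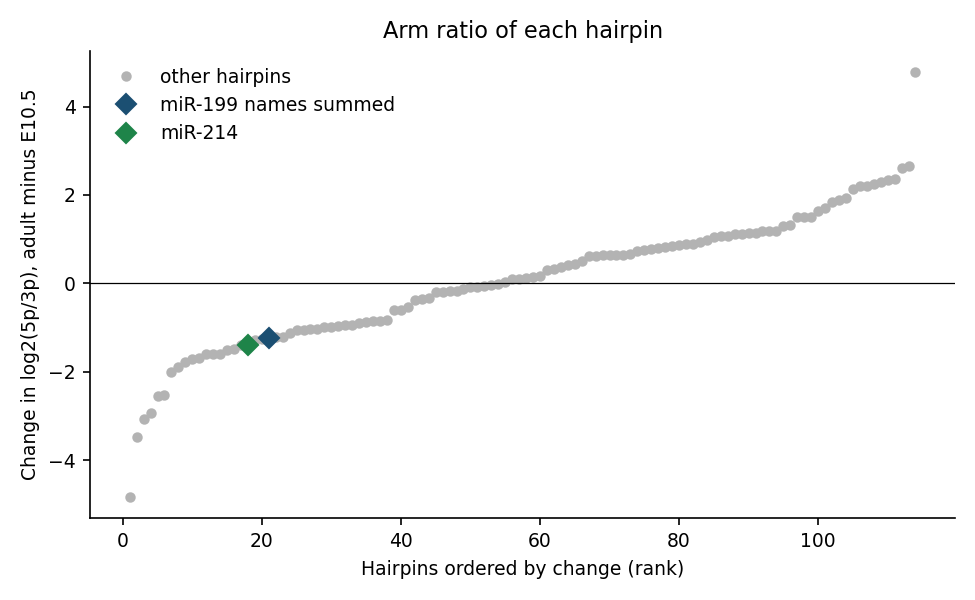
Change in log2(5p/3p) between the adult and E10.5 for 114 hairpins, ordered by size. miR-199 (-1.23) and miR-214 (-1.39) lie below the lower quartile of -0.98, and neither is at the edge of the distribution.

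Mir199a-2 and Mir214 share a host transcript, so their arms were also set against each other within each library. Per 1000 counts of the miR-199 5p arms there were 11.3 (E10.5; exact interval 10.8 to 11.9), 11.4 (E14.5), 14.8 (E17.5; 14.2 to 15.4), 23.0 (newborn; 21.9 to 24.0) and 30.9 (adult; 28.5 to 33.5) counts of miR-214-3p. E10.5 and E14.5 (10.9 to 11.9) had overlapping intervals, and each later library was higher. The ratio of miR-199a-5p to miR-214-5p had another course, at 106 (E10.5), 168 (E14.5), 157 (E17.5), 142 (newborn) and 101.5 (adult). It was highest at E14.5, and E10.5 (101 to 112) and the adult (88.1 to 118) overlapped. Part of the miR-199a-5p counts can come from Mir199a-1 in Dnm2, which gives the same mature sequence.

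Ratios to miRNAs of other heart cells were taken in the same way. Per 1000 counts of miR-143-3p, a miRNA of smooth muscle and fibroblasts, there were 112 (E10.5), 126 (E14.5), 109 (E17.5), 65.8 (newborn) and 22.5 (adult) counts of miR-199a-5p. Against miR-21a-5p, which is enriched in cardiac fibroblasts, the same measure was 403, 533, 627, 407 and 276. Relative to both, miR-199a-5p was lowest in the adult, but it reached its highest value at E14.5 against miR-143-3p and at E17.5 against miR-21a-5p. Against the endothelial miR-126a-3p there were 668, 662, 556, 243 and 40.7 counts per 1000. Against miR-1a-3p, the main miRNA of heart muscle, there were 332, 314, 206, 72.8 and 6.69. Against these last references the values were lower in each library after E14.5, and for miR-126a-3p the E10.5 (663 to 672) and E14.5 (658 to 666) intervals overlapped.

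miR-214-3p had another course against the same references. Per 1000 counts of miR-21a-5p it had 4.62 (E10.5; 4.40 to 4.85), 6.12 (E14.5), 9.34 (E17.5), 9.42 (newborn) and 8.68 (adult; 8.01 to 9.40) counts, so the adult stayed above E10.5. For miR-143-3p as the reference it had 1.28, 1.45, 1.62, 1.52 and 0.709, with the adult below the other libraries. For miR-1a-3p it had 3.80, 3.61, 3.07, 1.69 and 0.211. Against miR-145a-5p, which shares its cluster with miR-143, the ratio of miR-214-3p was 1.95 (E10.5), 4.64 (E14.5), 4.37 (E17.5), 5.74 (newborn) and 1.54 (adult), highest in the newborn. That reference is the scarcer arm of its hairpin, with 322 counts in the newborn against 11984 of miR-145a-3p. The ratio to miR-145a-3p was not taken, so the course holds for this arm only.

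**Figure D5:**
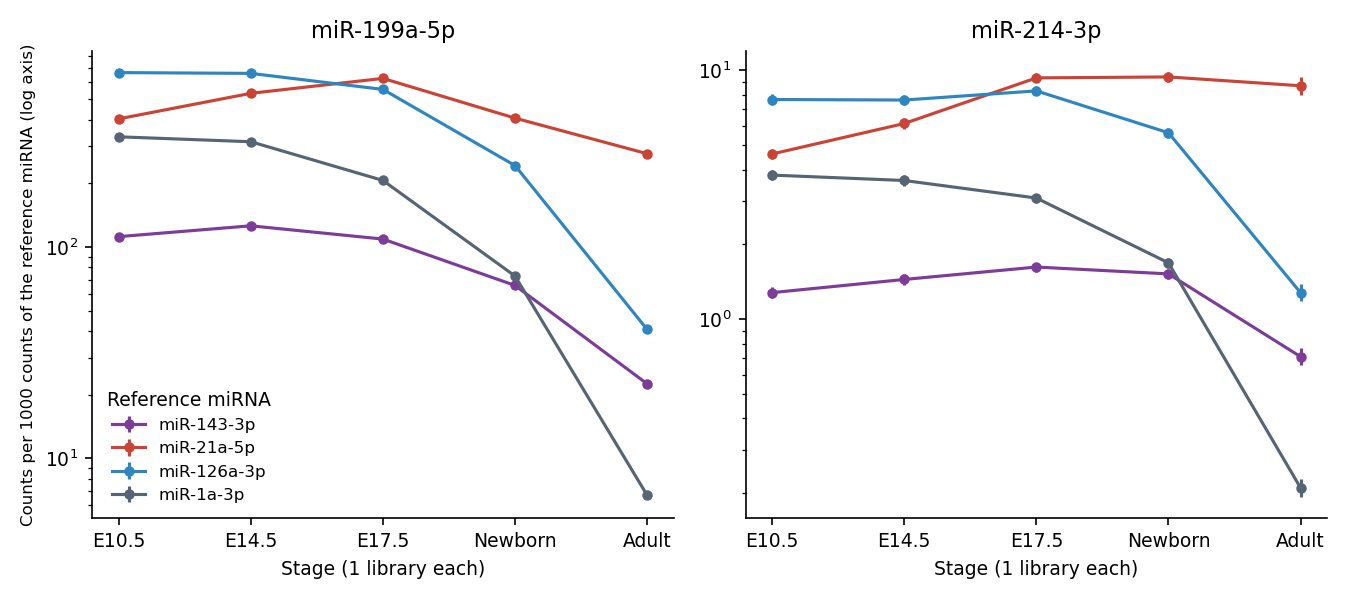
Counts of miR-199a-5p (left) and miR-214-3p (right) per 1000 counts of 4 reference miRNAs in the same library, on a log axis, with exact 95% intervals. Against miR-1a-3p both are lowest in the adult (6.69 and 0.211), while against miR-21a-5p miR-214-3p is higher in the adult (8.68) than at E10.5 (4.62).

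Marker lists of the cell types of the heart give the setting of these values. Of the 7 other mesenchymal, fibroblast and smooth muscle miRNAs, 2 were past the 2-fold limit downward between E10.5 and the adult (miR-21a-5p at -2.67 and miR-145a-5p at -1.39) and 1 upward (miR-22-3p, at 2.12, which other heart cells also express). The other list members were not examined for expression in other heart cells. The median of the 7 was -0.73, and their level summed to 167325 CPM in the E10.5 and 81263 CPM in the adult library. Of 5 cardiac muscle miRNAs 2 were higher and 1 lower (median 0.79), and their sum went from 51949 to 242063 CPM. Of 4 endothelial miRNAs 1 was higher (median 0.81), and 2 of the 5 blood miRNAs found by name were (median 0.63). The listed blood miRNA miR-142a-3p was not found under that name and is left out, although arms named miR-142 were counted. None of the 4 neural miRNAs was past the limit in that span (median -0.90), while all 5 epithelial miRNAs (median -4.98) and the liver miRNA miR-122-5p (-4.70) were lower. Under median-ratio scaling the mesenchymal list had 5 of 7 higher and 0 lower (median 1.65), the cardiac muscle list 4 of 5 higher and 1 lower, and all 4 endothelial, all 5 blood and all 4 neural miRNAs were higher, while 4 of 5 epithelial miRNAs and the liver miRNA were lower. The part of these cell types in the levels of miR-199 and miR-214 was not tested.

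The miRNAs whose course was most like that of a member were found by the root mean square of the centred difference in log2(CPM + 1) over the 5 stages, among 374 miRNAs with a mean of at least 100 counts. For miR-199a-5p the nearest was miR-224-5p, at 0.12, with 1270, 1175, 915, 566 and 110 CPM over the stages. miR-365-2-5p and miR-301a-3p (both 0.17), miR-1981-5p (0.19) and miR-184-3p (0.23) followed. In the adult miR-365-2-5p had 24 counts (1.85 CPM) and miR-301a-3p 18 counts (1.39 CPM). At such levels the added 1 narrows log2 differences, so the closeness of both depends on it. For miR-214-3p the nearest was miR-3064-5p, at 0.07, with 127, 125, 160, 146 and 39 counts. It had 3.01 CPM in the adult, so its closeness also depends on the added 1. Next came let-7e-5p (0.13), miR-1981-3p (0.17), miR-330-5p (0.18) and miR-455-5p (0.18). The other members were farther away. miR-214-5p stood at 0.31 from miR-199a-5p, with 12 of the 374 miRNAs closer, and miR-214-3p at 0.58, with 76 closer. From miR-214-3p the nearest member was miR-199a-3p at 0.34, with 20 closer. With 5 points, 1 library each, these distances describe the libraries.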

How the data were processed

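Per the labels' protocols, RNA was extracted with Trizol and RNA of 18 to 30 nucleotides was ligated to 3′ adapters with molecular identifiers. The submitters' processing notes name mm9, HISAT, HISAT2, Bowtie, Bowtie2 and RSEM without roles. The deposited values are whole-number counts for each mature miRNA, although the table's name says FPKM. No source used here says whether the authors counted reads or identifiers. The table of long RNA was not used, since no name table pairs its identifiers with symbols, so host transcripts are not analysed here.

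Counts were divided by the library total (CPM). With 1 library per stage no count test was run. Differences are log2(CPM + 1), which understates those of low miRNAs, for miRNAs with at least 10 counts in either stage. Intervals are 95%, exact Clopper-Pearson for ratios and Wilson for shares, and cover counting error only. Sequences and positions are RefSeq's (GRCm38.p6). Named were the members, miRNAs sharing a seed, the comparison families, list markers and the 5 nearest miRNAs of miR-199a-5p and miR-214-3p. Members and lists were chosen with earlier results of these data known. Alternatives were other scalings, pseudocounts, filters, a 4-fold limit, leaving out the name miR-199b-3p, and leaving out the newborn library. Python 3.11.15, pandas 2.3.3, numpy 2.4.6 and scipy 1.17.1 were used.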

Additional observations from a re-analysis of the deposited data

How the results depend on the processing

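With 1 library per stage, counting error is the only error shown, and no replicate could be left out. No paired analysis was possible because each group has 1 library. The 6 members past the 2-fold limit between newborn and adult became 0 under median-ratio scaling, 3 with the 10 most abundant miRNAs left out of the total and 1 with a 4-fold limit. In the comparison with E17.5 that leaves out the newborn, chosen after seeing the data, the count stayed at 6 with CPM but fell to 1 when scaled by median ratios. For the adult against E10.5 the 6 became 0 under median-ratio scaling and 3 with a 4-fold limit. The counts of 0 at the other 3 steps were also 0 under median-ratio scaling, with unscaled counts, with the 10 most abundant left out of the total and with a pseudocount of 0.1, while the other settings could not have raised them. Under median-ratio scaling the adult differences from the newborn turned to 0.077 for miR-199b-5p, 0.18 for miR-199a-3p and 0.19 for miR-199b-3p, and those from E10.5 to 0.40 for miR-199a-3p, 0.41 for miR-199b-3p and 0.62 for miR-214-3p. The cause was not tested. Of all 30 differences, called or not, 16 turned under median-ratio scaling, 3 with unscaled counts, 3 with the 10 most abundant left out of the total and 0 with pseudocounts of 0.1 and 5.

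With the name miR-199b-3p left out and miR-199a-3p kept, the 5p share of miR-199 was 85.5% (E10.5), 88.4% (E14.5), 89.4% (E17.5), 83.6% (newborn) and 71.5% (adult). The remaining members then held 1.69%, 1.58%, 1.37%, 0.776% and 0.220% of all remaining counts. Whether this counts each shared read once depends on how shared reads were assigned, which is not known. With all 6 members kept and the 10 most abundant miRNAs left out of the total, the members held 2.97%, 3.60%, 3.43%, 2.22% and 0.765%, highest at E14.5. The ratio of miR-214-3p to the miR-199 5p arms does not use the 3p names. Of the 5 miRNAs nearest to miR-199a-5p, 3 remained with a mean of at least 1000 counts and 2 by Pearson correlation, and of those nearest to miR-214-3p 3 and 1. The limit of 1000 counts leaves the distances unchanged, so it only shows how many of the 5 have such a mean.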

Other observations

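Another pair of names with the same mature sequence was counted in the table. let-7a-1-3p and let-7c-2-3p, with 1 hairpin each, had 689 and 689 (E10.5), 1005 and 1003 (E14.5), 1102 and 1102 (E17.5), 1037 and 1034 (newborn) and 1234 and 1233 (adult) counts. Their counts thus stood near 1 to 1, as those of miR-199a-3p and miR-199b-3p, with 2 and 1 hairpins, stood near 2 to 1.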
